A study of Mus musculus with 38 samples.

Results

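Gene expression was compared between dVenus+ and dVenus- granule cells of the dentate gyrus of the same fear conditioned (FC) mice, in 24 of the 38 libraries of the series (12 of 19 mice, 1 dVenus+ and 1 dVenus- library from each). The libraries were chosen by their labels, and the number of the mouse paired them. All mice were adult males (postnatal weeks 8 to 12) of the *Arc*::dVenus line on a C57BL/6J background. In this line the promoter of *Arc*, an activity regulated gene, drives a destabilized Venus fluorescent protein, so that a dVenus+ cell is one with recent *Arc* promoter activity and a dVenus- cell a neighbour without visible reporter. In a training context the FC mice had received 3 tones that each ended with a foot shock, and cells were collected 24 h later. The contents of 10 cells per sample were aspirated through a patch pipette, pooled and amplified to full-length cDNA, so each value is the average of 10 cells, in which fewer cells of a type and less RNA per cell cannot be told apart. Mice exposed to the context and tones without shock (NS, 4 mice, 8 libraries) and mice kept in the home cage (HC, 3 mice, 6 libraries) were used only to compare the size of the difference. The reporter marks cells by *Arc* promoter activity and not by a role in memory, and it is present in the genome of dVenus- cells as well.

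Granule cells are the principal neurons of the dentate gyrus, which receive input from the entorhinal cortex and fire sparsely, so that few of them are active in a given context. Activated neurons transcribe early genes within minutes and later genes that act on synapses, protein turnover and signaling. Proteins tagged with ubiquitin are degraded by the proteasome, a barrel of alpha and beta rings capped by a regulatory particle, and chaperones fold or hold proteins that would otherwise be degraded. Calcium that enters an active neuron binds calmodulin and other sensor proteins, which steer kinases, phosphatases and transmitter release.

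Depth and composition differed between the libraries. The total count on genes ran from 1352290 to 11151800 (median 7080450) in dVenus+ and from 3554950 to 18394800 (median 9955730) in dVenus- samples, lower in dVenus+ samples in 9 of 12 mice (p = 0.0225 by an exact two-sided permutation test that flips signs, 0.0562 after adjustment over 5 measures). The share of counts in the 100 most abundant genes was 50.2% in dVenus+ and 37.9% in dVenus- samples on average (exact permutation test, adjusted p = 0.104). The most abundant entry was *Rn45s*, the precursor of ribosomal RNA, at medians of 260596 and 202119 normalized CPM, a log2 difference of 1.08 with an adjusted p of 0.258. CPM scales each library to the same total of counts on genes. Here it was normalized by scaling factors (TMM) that leave out genes of extreme abundance or change, so the normalized totals are not equal. They ran from 689244 to 3727700 (median 924826) in dVenus+ and from 631794 to 1427760 (median 872123) in dVenus- samples. The FC mice had been processed in 3 experiments, of 2, 4 and 6 mice, each holding both cell types. The NS and HC mice belonged to another experiment, which held no FC mice.

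A gene was called when edgeR's quasi-likelihood test, with the mouse as block, gave a Benjamini-Hochberg adjusted p under 0.05 and its absolute log2 fold change was over 1. By this rule 137 of 9709 tested genes were called (1.41%). Of these, 56 were higher in dVenus+ cells (0.577%) and 81 lower (0.834%). The median log2 fold change of all genes tested was -0.21, and 56.9% of them lay below 0. The direction was shared by all 12 mice for 35 of the 56 higher and 54 of the 81 lower genes, against 53 (0.546%) and 105 (1.08%) of all genes tested. Values of dVenus+ and dVenus- samples did not overlap at all for 12 genes (0.124% of those tested). In 8 of these, among them *Arc*, *Sorcs3*, *Scg2*, *Esd*, *Rgs2*, *Mapk4* and *Arpp21*, every dVenus+ sample lay above every dVenus- sample (0.0824%), and in 4, *Camk2b*, *Camkv*, *Tcf4* and *Rtn1*, every one lay below (0.0412%).

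The number of calls moved with the method and with single mice, whereas the direction of the called genes did not. The newer quasi-likelihood method of the same tool called 422 genes (4.35%), 146 higher (1.5%) and 276 lower (2.84%), which included all 137. Scaling by total counts instead of TMM moved the median of all genes by -0.34 and left 20 higher and 61 lower calls. Leaving out mouse 3 left 56 calls, and leaving out mouse 1 left 66. Of the 137 calls, 55 (29 higher and 26 lower) passed the threshold without each mouse in turn. Each of the 137 genes had the same sign in all 3 experiments, against 37.3% of all genes tested, and in each mouse between 125 and 136 of the 137 moved in the called direction. These signs are no independent check, since the genes were called on the same mice.

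**Figure D1:**
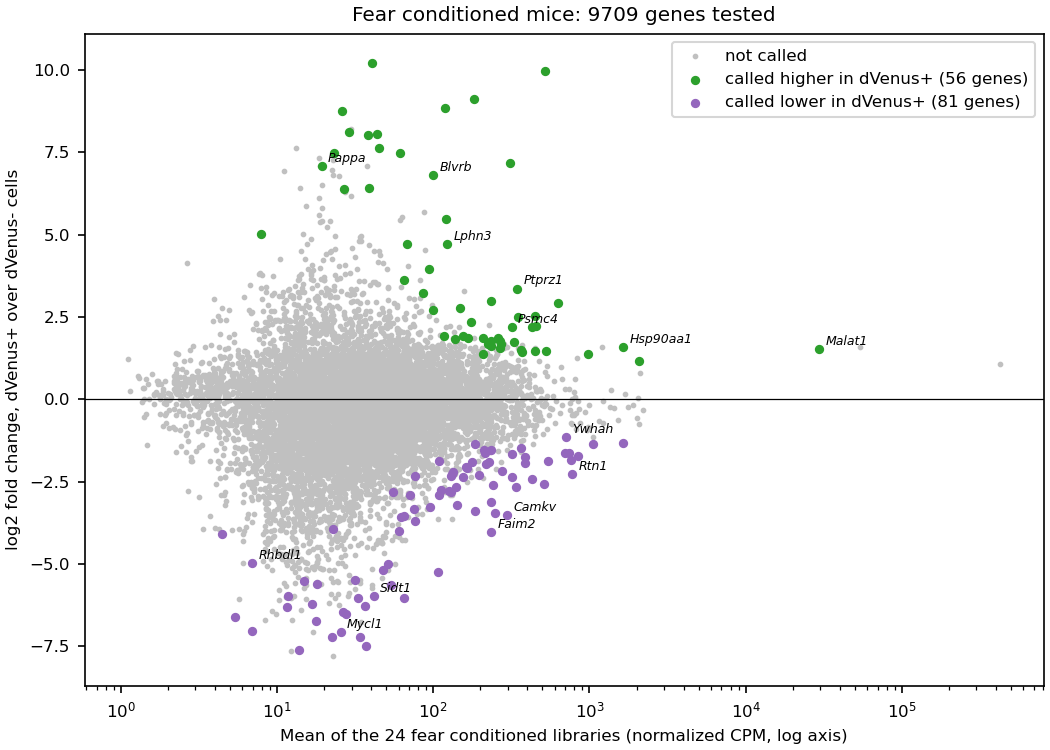
Mean level of each gene over the 24 FC libraries (horizontal, normalized CPM, log axis) against the log2 fold change of dVenus+ over dVenus- cells (vertical), with 1 point per gene tested. The 56 genes called higher (green) and 81 called lower (purple) in dVenus+ cells had median levels of 194 and 129 normalized CPM. The median level of all genes tested was 33.7 normalized CPM, and grey points are genes not called.

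Markers of granule cells were present in both cell types and lower in dVenus+ samples. Of 10 markers tested 8 lay below 0 (median -1.47), *Calb1* and *Sema5a* were called lower, and *Prox1*, a factor that defines granule cells, was at -0.93 (adjusted p = 0.606). Their summed level was from 394 to 1838 normalized CPM (median 961) in dVenus+ samples and from 1078 to 3199 (median 1897) in dVenus- samples, lower in 12 of 12 mice.

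Microglia markers moved with the dVenus+ samples. Their summed level was from 42.3 to 2465 normalized CPM (median 299.9) in dVenus+ samples and from 1.44 to 861 (median 66.4) in dVenus- samples, higher in 12 of 12 mice. Of 12 markers 9 were tested, all 9 lay above 0 (median 4.51), and *Tyrobp*, a signaling adaptor of myeloid cells, was called (log2 fold change 8.13 ± 1.97 (SE), adjusted p = 0.0464), while the newer method called 5. *P2ry12*, a defining marker, was at 0 in 4 dVenus+ and 5 dVenus- samples with medians of 3.00 and 5.05 normalized CPM, and *Tmem119* and *Trem2*, too rare for the test, were at 0 in 6 dVenus+ samples each and in 10 and 9 dVenus- samples. Called genes known from myeloid cells outside the list were *Blnk* (10.20) and *Gpnmb* (8.02), named after their values were seen. Within the experiments of 2, 4 and 6 mice the median within-mouse difference of the 9 markers was 1.16, 0.49 and 3.25. The call of *Tyrobp* was lost without mouse 1, 3, 4, 9, 10, 11, 12, 13 or 14. The part of microglial RNA in the genes called higher was not tested. Of the markers of immature granule cells, mossy cells, pyramidal cells, interneurons, astrocytes and oligodendrocytes, with 3 or 4 tested in each list, edgeR called 0, with 0 or 1 per list at an unadjusted p under 0.05 and 0 to 2 called by the DESeq2 Wald test, and none of the markers of oligodendrocyte precursors and endothelium reached the count minimum. Over all 9709 genes tested, 1238 had an unadjusted p under 0.05 and the DESeq2 Wald test called 1635.

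Of the 137 called genes, 25 belong to the activity regulated, CREB and potassium channel lists already described for this study, 18 higher and 7 lower. *Arc* itself, whose promoter drives the reporter, ranged from 545 to 1803 normalized CPM (median 943) in dVenus+ samples and from 0 to 193 (median 0.628) in dVenus- samples, without overlap. The dVenus- samples of mice 6, 7 and 14 held 122, 53.4 and 193 normalized CPM of *Arc*, and the other 9 at most 2.43. Without these 3 mice, 45 genes were called (24 higher and 21 lower), 42 of them among the 137. The account that follows is of the other 38 higher and 74 lower genes and of lists of genes by function. Genes of those earlier lists are named only where a function list holds them, where the groups did not overlap or beside the microglia markers. Among called genes, 31 of the higher and 33 of the lower ones had at least 10 counts in all 24 libraries, and 10 of the higher and 15 of the lower ones had that in at most 3 samples of the cell type with the lower level. For the latter the fold change rests on values at or near 0 and depends on the small count that the fit adds.

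The promoters of 4 called genes are shown because each holds a motif counted below and belongs to a group described here. They were chosen after the values were seen. They are RefSeq windows of GRCm38.p6, from 250 bases before to 50 bases after an annotated start, written 5′ to 3′ along the gene, with the motif in capitals. *Hsph1*, a chaperone gene called higher, holds a heat shock element (GAA, TTC and GAA, each 2 bases apart, here on the opposite strand) 37 bases after the start of the window shown (chr5:149636287-149636586 on the minus strand). The gene has 2 windows, and the element lies in both. *Scg2*, a secretory granule gene called higher, holds a cyclic AMP response element (CRE, TGACGTCA) 68 bases before the start (chr1:79439977-79440276 on the minus strand). *Lphn3*, an adhesion receptor gene called higher, holds a TATA box (TATAAA) 28 bases before the start of the window shown (chr5:81020502-81020801 on the plus strand). The gene has 3 windows, and the other windows lack this motif. *Ywhah*, a 14-3-3 gene called lower, also holds a CRE, 96 bases before the start (chr5:33018566-33018865 on the plus strand).
Hsph1: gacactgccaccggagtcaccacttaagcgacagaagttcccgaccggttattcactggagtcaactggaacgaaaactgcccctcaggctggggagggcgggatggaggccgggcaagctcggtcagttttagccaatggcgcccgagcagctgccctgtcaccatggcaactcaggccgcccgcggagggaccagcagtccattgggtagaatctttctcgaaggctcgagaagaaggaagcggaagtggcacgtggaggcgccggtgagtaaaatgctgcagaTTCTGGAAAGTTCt
Scg2: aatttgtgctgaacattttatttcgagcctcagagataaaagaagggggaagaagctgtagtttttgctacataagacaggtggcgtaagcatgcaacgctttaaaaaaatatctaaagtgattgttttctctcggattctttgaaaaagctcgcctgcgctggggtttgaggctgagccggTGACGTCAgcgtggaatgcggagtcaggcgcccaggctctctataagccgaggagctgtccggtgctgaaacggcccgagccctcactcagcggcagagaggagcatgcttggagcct
Lphn3: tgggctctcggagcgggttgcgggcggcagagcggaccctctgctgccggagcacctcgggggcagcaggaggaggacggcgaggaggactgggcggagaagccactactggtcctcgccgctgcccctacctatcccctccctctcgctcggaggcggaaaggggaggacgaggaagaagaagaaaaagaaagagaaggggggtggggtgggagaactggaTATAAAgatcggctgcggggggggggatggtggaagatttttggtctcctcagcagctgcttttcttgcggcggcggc
Ywhah: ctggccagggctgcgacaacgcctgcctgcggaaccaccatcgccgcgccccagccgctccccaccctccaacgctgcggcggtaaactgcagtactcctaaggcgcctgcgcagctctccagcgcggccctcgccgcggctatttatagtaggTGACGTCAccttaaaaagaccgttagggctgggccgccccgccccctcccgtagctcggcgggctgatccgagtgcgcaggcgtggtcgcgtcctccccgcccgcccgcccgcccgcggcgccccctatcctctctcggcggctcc

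Among the function lists, proteasome genes held the largest number of calls higher in dVenus+ cells. Of 44 proteasome subunits and cofactors tested, 7 were called higher and 0 lower (0.577% of all genes were called higher), 37 had a log2 fold change above 0, and their median log2 fold change was 1.10 against -0.21 over all genes. *Psmc4*, an ATPase of the regulatory particle, ranged from 239 to 1164 normalized CPM (median 439) in dVenus+ samples and from 46.6 to 276 (median 104) in dVenus- samples. It was higher in dVenus+ cells in 12 of 12 mice, although the 2 groups overlapped, with a log2 fold change of 2.20 ± 0.30 (SE), adjusted p = 0.000652. *Psmb4*, a subunit of the beta ring, ranged from 128 to 953 normalized CPM (median 285) in dVenus+ samples and from 11.1 to 244 (median 107) in dVenus- samples, and was also higher in 12 of 12 mice (log2 fold change 1.67 ± 0.37 (SE), adjusted p = 0.0288). The other 5 called subunits were *Psmd12* (1.87), *Psmb3* (1.87), *Psmd1* (1.86), *Psmd4* (1.67) and *Psmc5* (1.47), higher in 10 or 11 of 12 mice.

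The parts of the proteasome differed in how many members were called. All 7 subunits of the alpha ring, all 7 of the beta ring and all 6 regulatory ATPases had log2 fold changes above 0, with medians of 0.85, 1.10 and 1.55 and 0, 2 and 2 calls. Of the 14 other regulatory subunits, 12 lay above 0 (median 1.48) and 3 were called. *Psmd10*, which encodes an assembly chaperone also known as gankyrin, had a value of -2.28 (adjusted p = 0.643). The 9 genes of alternative activators, assembly factors and an inhibitor had a median of -0.42 and 0 calls, with *Psme1* at -2.90 and *Psme4* at 1.81. The only subunit of the immunoproteasome tested, *Psmb10*, was at 0.10. This division of the list was made after its values were seen.

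The summed level of the proteasome genes was from 6102 to 14267 normalized CPM (median 9914) in dVenus+ samples and from 2180.0 to 7058 (median 4099) in dVenus- samples, higher in dVenus+ samples in 12 of 12 mice. Within the experiments, the median over the list of the mean within-mouse difference of log2(normalized CPM + 1) was 1.63 in the experiment of 2 mice, -0.20 in that of 4 mice and 1.52 in that of 6 mice, against -0.38, -0.41 and -0.03 over all genes. *Psmc4* passed the threshold without each of the 12 mice in turn. Without mouse 1, 3 or 14 it was the 1 subunit called, and scaling by total counts also left 1 call, with a median of 0.78.

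**Figure D2:**
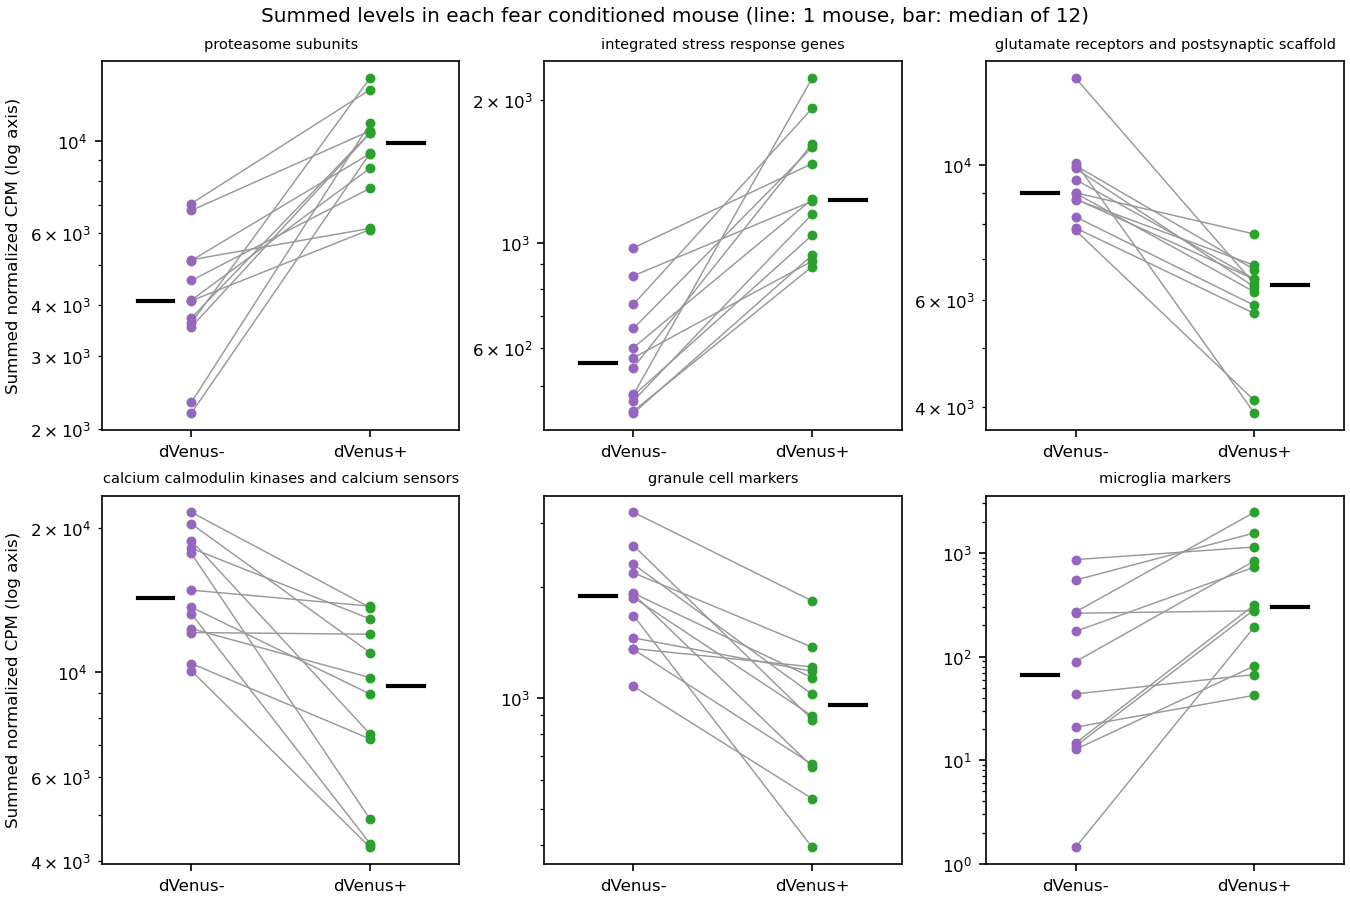
Summed normalized CPM of 6 gene lists (vertical, log axis) in the dVenus- and dVenus+ sample of each FC mouse, with 1 line per mouse and a bar at the median of 12. Proteasome subunits, integrated stress response genes and microglia markers lay higher in dVenus+ samples in 12 of 12 mice, whereas glutamate receptor and scaffold genes, calcium dependent kinases and sensors, and granule cell markers lay lower in 12 of 12. *Camk2b* is in both the glutamate and the calcium list, and *Calb1* in both the calcium and the granule cell list.

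Of 195 genes of the ubiquitin system 3 were called, all higher (0.577% of all genes were called higher), and 0 when scaled by total counts. The precursor genes *Ubb* and *Rps27a* had log2 fold changes of 0.53 and 0.53, with adjusted p of 0.748 and 0.63. *Uchl1*, an abundant neuronal enzyme that recycles ubiquitin, ranged from 257 to 836 normalized CPM (median 515) in dVenus+ samples and from 94.2 to 405 (median 151) in dVenus- samples (log2 fold change 1.51 ± 0.30 (SE), adjusted p = 0.0149), and *Rnf4*, a ubiquitin ligase that recognizes SUMO chains, had a log2 fold change of 1.91 ± 0.47 (SE), adjusted p = 0.0461. The call of *Rnf4* was lost when any 1 of 11 mice was left out. The list as a whole was at -0.09, close to the median of all genes. *Vcp*, the ATPase p97 that pulls ubiquitinated proteins out of complexes and membranes, ranged from 204 to 873 normalized CPM (median 551) in dVenus+ samples and from 87.6 to 322 (median 212) in dVenus- samples and was higher in 12 of 12 mice (log2 fold change 1.43 ± 0.27 (SE), adjusted p = 0.0104). Among 25 genes of p97 and its cofactors, a list made after these values were seen, 21 lay above 0 with a median of 0.84, and *Vcp* was the 1 gene called. *Rfwd2*, a ubiquitin ligase also known as COP1, and *Trim9*, a neuronal ligase, were called higher as well, at 3.22 and 1.47.

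Chaperones were called higher in 3 of 73 cases and lower in 0 (0.577% of all genes were called higher), and the 3 belong to the cytosolic heat shock system. *Hsp90aa1*, the inducible cytosolic HSP90, ranged from 1172 to 5321 normalized CPM (median 2005) in dVenus+ samples and from 278 to 1491 (median 763) in dVenus- samples and was higher in 11 of 12 mice (log2 fold change 1.57 ± 0.30 (SE), adjusted p = 0.0115). *Hspa8*, the constitutive HSP70, had a log2 fold change of 1.17 ± 0.28 (SE), adjusted p = 0.0445. *Hsph1*, a nucleotide exchange factor of HSP70, ranged from 161 to 1465 normalized CPM (median 765) in dVenus+ samples and from 17.0 to 434 (median 134) in dVenus- samples (log2 fold change 2.24 ± 0.51 (SE), adjusted p = 0.0328). *Hsp90ab1*, the constitutive HSP90, was at 0.17 (adjusted p = 0.824). The list's median of 0.20 turned to -0.22 when scaled by total counts, with 0 calls, and 1 gene of the list was called without mouse 1, 3, 5, 6, 7, 11, 12 or 13. The heat shock element was found in 4.65% of 43 promoters of genes called higher (*Hsph1* and *Uchl1*), in 1.67% of 60 of genes called lower and in 0.629% of 7795 of genes tested, and the motif was chosen after the values were seen.

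Genes for making proteins did not move as 1 block (over all genes 0.577% were called higher and 0.834% lower). Of 22 aminoacyl tRNA synthetases, which charge tRNA with amino acids, *Hars* was called higher, ranging from 64.0 to 425 normalized CPM (median 227) in dVenus+ samples and from 16.0 to 171 (median 53.9) in dVenus- samples with a rise in 12 of 12 mice (log2 fold change 1.93 ± 0.40 (SE), adjusted p = 0.0184). Without mouse 1 or 3, and when scaled by total counts, *Hars* was not called and no other synthetase was. The list's median was 0.58, and its summed level was higher in 12 of 12 mice. *Tars*, *Aars* and *Nars* had values of 2.61, 2.27 and 1.58 and adjusted p of 0.149, 0.0922 and 0.101, and the newer method called these 3 as well. Of 77 ribosomal protein genes 0 were called, with a median of 0.20 that turned to -0.22 when scaled by total counts. Among 65 translation factors 0 were called, and the newer method called *Eif5* (1.41) and *Eif2s2* (1.40) higher. The 20 genes of the integrated stress response, in which reduced translation goes with the factor ATF4, had a median of 0.82 and a summed level that was higher in 12 of 12 mice, yet 0 were called. *Atf4* was higher in 12 of 12 mice at 2.70 (adjusted p = 0.0722) and *Ddit3*, the stress factor CHOP, was at 3.05 (adjusted p = 0.132), and the newer method called both.

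Energy metabolism gave 0 calls. Of 85 respiratory chain genes 66 lay below 0 with a median of -0.43, and 0 were called, against 56.9% of all genes below 0. The median within-mouse difference was 0.11 in the experiment of 2 mice, -1.20 in that of 4 mice and -0.15 in that of 6 mice. The 20 glycolysis genes had a median of -0.26 and 0 calls. For these lists without a call, edgeR gave an unadjusted p under 0.05 for 6 respiratory chain, 6 glycolysis, 1 ribosomal protein, 6 translation factor and 3 stress response genes, and the DESeq2 Wald test called 5, 5, 1, 5 and 5 of them. Limma-voom called 0, 2, 0, 2 and 2. Over all 9709 genes tested, 1238 had an unadjusted p under 0.05 in edgeR, the DESeq2 Wald test called 1635 and limma-voom 307. *Blvrb*, which reduces biliverdin from heme breakdown, was the gene called among 40 antioxidant and heme genes (0.577% of all genes were called higher). It ranged from 45.9 to 467 normalized CPM (median 137) in dVenus+ samples and from 0 to 56.9 (median 2.30) in dVenus- samples and was higher in 12 of 12 FC mice, with a log2 fold change of 6.82 ± 1.30 (SE), adjusted p = 0.0112. *Esd*, an esterase that detoxifies formaldehyde adducts of glutathione, ranged from 194 to 759.9 normalized CPM (median 376) in dVenus+ samples and from 5.72 to 134 (median 71.8) in dVenus- samples without overlap (log2 fold change 2.98 ± 0.52 (SE), adjusted p = 0.00617).

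**Figure D3:**
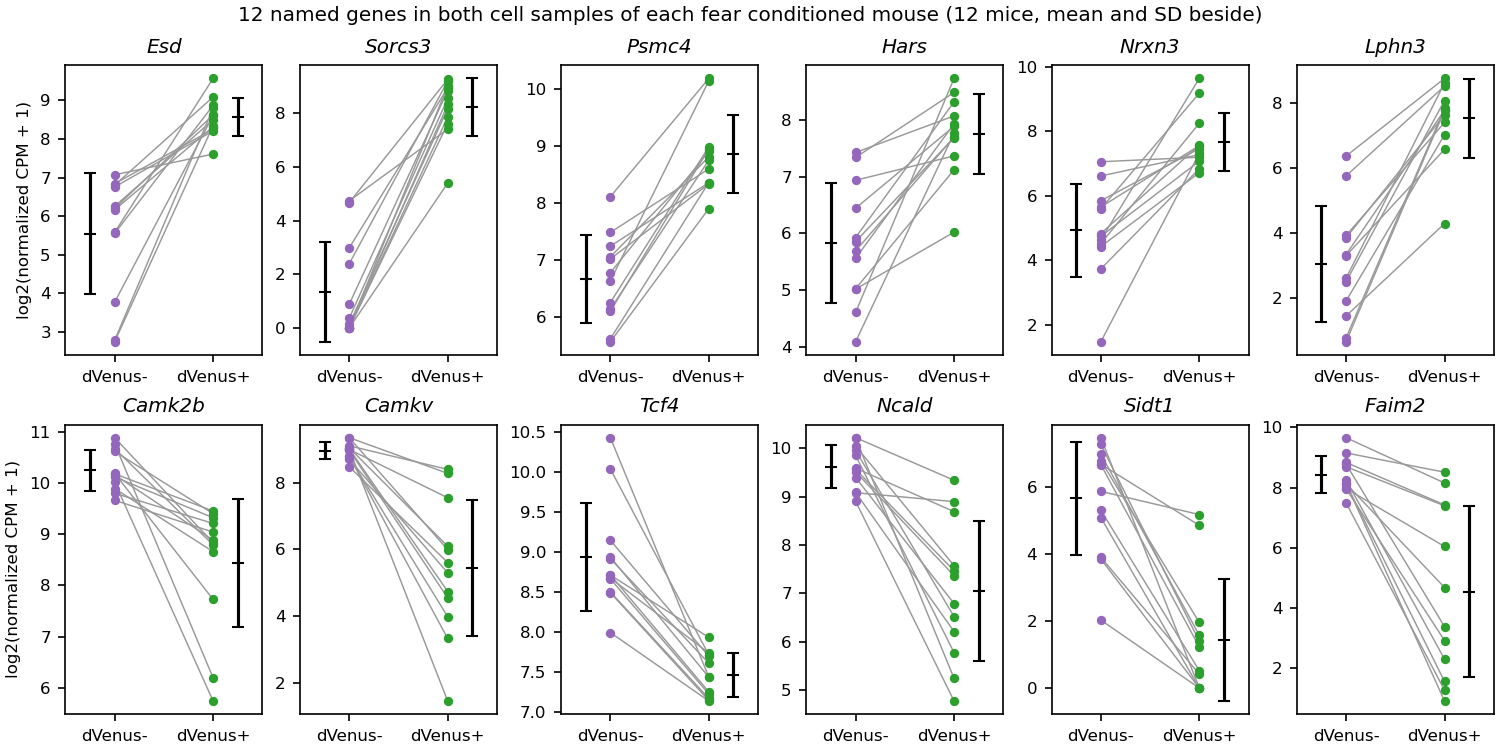
Level of 12 named genes (vertical, log2 of normalized CPM + 1) in the dVenus- and dVenus+ sample of each FC mouse, with 1 line per mouse and the mean with its SD over 12 samples beside the points. *Esd* and *Sorcs3* lay higher and *Camk2b*, *Camkv* and *Tcf4* lower in dVenus+ samples without overlap, whereas the groups overlapped for the other 7 genes.

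Calcium dependent kinases and calcium sensors stood on the lower side. Of 30 genes tested, 5 were called lower and 0 higher (0.834% of all genes were called lower), 24 lay below 0, and the median was -0.85. *Camkv*, a kinase-like protein that binds calmodulin, ranged from 1.76 to 335 normalized CPM (median 43.1) in dVenus+ samples and from 355 to 648 (median 508) in dVenus- samples, without overlap between the groups (log2 fold change -3.51 ± 0.57 (SE), adjusted p = 0.00372). *Camk2b*, the beta subunit of calcium/calmodulin-dependent kinase II that binds actin, ranged from 52.4 to 701 normalized CPM (median 463) in dVenus+ samples and from 810.0 to 1894 (median 1152) in dVenus- samples, also without overlap (log2 fold change -1.73 ± 0.37 (SE), adjusted p = 0.0218), and was not called without mouse 3 or 12 or with total counts. *Camk2a*, the alpha subunit, was lower in 11 of 12 mice at -1.16, with an adjusted p of 0.0527, while *Camk2g* was at -0.71 (adjusted p = 0.471) and *Camk2d* at 3.24 (adjusted p = 0.27).

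Among the calcium sensors, *Ncald* (neurocalcin delta) ranged from 26.3 to 646 normalized CPM (median 137) in dVenus+ samples and from 478 to 1190.5 (median 762) in dVenus- samples and was lower in 12 of 12 mice (log2 fold change -2.58 ± 0.42 (SE), adjusted p = 0.00372). *Hpca* (hippocalcin) was lower in 11 of 12 mice (log2 fold change -1.93 ± 0.44 (SE), adjusted p = 0.0326). The calcium buffer *Calb1*, calbindin, which granule cells hold in large amounts, ranged from 1.00 to 372 normalized CPM (median 58.4) in dVenus+ samples and from 223 to 871 (median 312) in dVenus- samples (log2 fold change -3.14 ± 0.58 (SE), adjusted p = 0.01). Of the other 7 sensors tested, 0 were called, with values from -2.70 for *Kcnip2* to 1.32 for *Kcnip3* (adjusted p = 0.148 and 0.276). The summed level of the 35 listed genes was from 4275 to 13726 normalized CPM (median 9344) in dVenus+ samples and from 10044 to 21608 (median 14245) in dVenus- samples, lower in 12 of 12 mice. Between 3 and 5 genes of the list were called when single mice were left out, fewest without mouse 3, and 5 when scaled by total counts.

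Glutamatergic synapse genes were lower in sum, with few single calls. Of 46 glutamate receptor and postsynaptic scaffold genes 34 lay below 0 (median -0.71). *Camk2b* and *Nsg2*, a receptor trafficking protein of endosomes, were called lower (0.834% of all genes were called lower). *Nsg2* ranged from 5.39 to 274 normalized CPM (median 70.8) in dVenus+ samples and from 189.7 to 951 (median 356) in dVenus- samples (log2 fold change -2.59 ± 0.49 (SE), adjusted p = 0.0112). The summed level was from 3913 to 7705 normalized CPM (median 6343) in dVenus+ samples and from 7811 to 13902 (median 8999) in dVenus- samples, lower in 12 of 12 mice. *Camk2b* belongs to this list and to that of calcium dependent kinases, so the 2 sums share members. Taken alone, the summed AMPA, NMDA and metabotropic receptor genes were higher in dVenus+ samples in 2, 5 and 5 of 12 mice. The AMPA receptor subunits *Gria1*, *Gria2*, *Gria3* and *Gria4* gave -0.71, -0.85, -0.71 and 3.59 and the obligatory NMDA receptor subunit *Grin1* -0.79, with adjusted p between 0.172 and 0.526. The metabotropic receptor gene *Grm5* was lower in 12 of 12 mice at -1.27 (adjusted p = 0.104). Of 18 GABA receptor and synthesis genes 0 were called (4 at an unadjusted p under 0.05, 4 by the DESeq2 Wald test), at a median of -0.29. Of all 9709 genes tested, 1238 had such an unadjusted p and the DESeq2 Wald test called 1635. The newer method called *Gad1* lower (-2.13).

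Of 71 synaptic vesicle and SNARE genes, 4 were called lower and 0 higher (0.834% of all genes were called lower), at a median of -0.30 beside -0.21 over all genes. *Rab3a*, the small GTPase of synaptic vesicles, ranged from 21.7 to 321 normalized CPM (median 103) in dVenus+ samples and from 139.8 to 725 (median 448) in dVenus- samples and was lower in 12 of 12 mice (log2 fold change -2.18 ± 0.34 (SE), adjusted p = 0.00304). *Cplx2*, a complexin that clamps the fusion machinery, ranged from 96.0 to 691 normalized CPM (median 351) in dVenus+ samples and from 421 to 1945 (median 1164) in dVenus- samples (log2 fold change -1.86 ± 0.31 (SE), adjusted p = 0.00465). *Rph3a*, an effector of Rab3, and *Dnm1*, the dynamin of synaptic vesicle endocytosis, were lower in 12 of 12 mice at -2.08 and -1.36. *Prrt2*, a synaptic protein that acts on release and on sodium channels, was called lower too, at -2.76, as was *Prrt3* at -6.48. Without mouse 1, 3 or 9, 2 vesicle genes were called.

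Among 35 sodium, calcium and HCN channel genes the 2 calls were both auxiliary subunits of sodium channels. Both were lower (0.834% of all genes were called lower). *Scn2b* ranged from 1.97 to 105 normalized CPM (median 38.5) in dVenus+ samples and from 73.7 to 351 (median 204) in dVenus- samples and was lower in 12 of 12 mice (log2 fold change -2.78 ± 0.64 (SE), adjusted p = 0.0331). *Scn3b* was lower in 11 of 12 mice (log2 fold change -3.40 ± 0.72 (SE), adjusted p = 0.0209). The pore subunits *Scn2a1*, *Scn8a*, *Scn3a* and *Scn1a* gave 0.16, -0.55, -1.12 and -1.79 with adjusted p of 0.444 or more. Without mouse 3, neither auxiliary subunit passed the threshold.

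Adhesion and matrix genes moved both ways. Of 86 adhesion genes 5 were called higher and 2 lower (over all genes 0.577% and 0.834%), at a median of -0.71. *Lphn3* (latrophilin 3, an adhesion receptor that binds teneurins and FLRT proteins across the synapse) ranged from 18.7 to 435 normalized CPM (median 220.1) in dVenus+ samples and from 0.585 to 82.2 (median 7.04) in dVenus- samples and was higher in 12 of 12 mice (log2 fold change 4.72 ± 0.64 (SE), adjusted p = 0.000652). Its relative *Lphn1* was at -0.12, and the partner genes *Tenm1*, *Tenm2*, *Tenm4*, *Flrt1*, *Flrt2* and *Flrt3* were at -2.85, -0.58, 2.44, -1.02, -0.20 and -1.98, with adjusted p between 0.322 and 0.987. *Nrxn3*, a presynaptic adhesion protein, ranged from 104 to 792 normalized CPM (median 166) in dVenus+ samples and from 1.76 to 131 (median 26.4) in dVenus- samples (log2 fold change 2.77 ± 0.53 (SE), adjusted p = 0.0115), and its relative *Nrxn2* was at 0.86 (adjusted p = 0.655).

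*Ptprz1*, a receptor phosphatase that binds matrix proteoglycans and is best known from glia, ranged from 281 to 1039.8 normalized CPM (median 602) in dVenus+ samples and from 0.750 to 339 (median 46.9) in dVenus- samples and was higher in 12 of 12 mice (log2 fold change 3.37 ± 0.69 (SE), adjusted p = 0.0161). The activity regulated protocadherin *Pcdh8* was called higher at 2.35 and *Pcdh7* at 5.03, while *Sema5a*, a semaphorin of granule cells, fell by 2.30 on the log2 scale. Of 26 matrix genes 2 were called higher (0.577% of all genes were called higher). They were *Acan*, the core protein of perineuronal nets, and *Col4a1*, a basement membrane collagen, at 8.06 and 4.71. *Acan* ranged from 0 to 313 normalized CPM (median 47.4) in dVenus+ samples and from 0 to 24.5 (median 0) in dVenus- samples, with 7 dVenus- samples at 0. *Sdc3*, a heparan sulfate proteoglycan of neurons, was lower in 12 of 12 mice at -5.02. *Pappa*, a protease that cleaves proteins binding insulin-like growth factors, ranged from 1.00 to 108 normalized CPM (median 35.6) in dVenus+ samples and from 0 to 1.01 (median 0.0930) in dVenus- samples (log2 fold change 7.10 ± 1.30 (SE), adjusted p = 0.00939), and *Igfbp5*, one of those binding proteins, ranged from 1.97 to 108 normalized CPM (median 19.2) in dVenus+ samples and from 48.0 to 488 (median 159) in dVenus- samples (log2 fold change -3.28 ± 0.68 (SE), adjusted p = 0.0179).

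**Figure D4:**
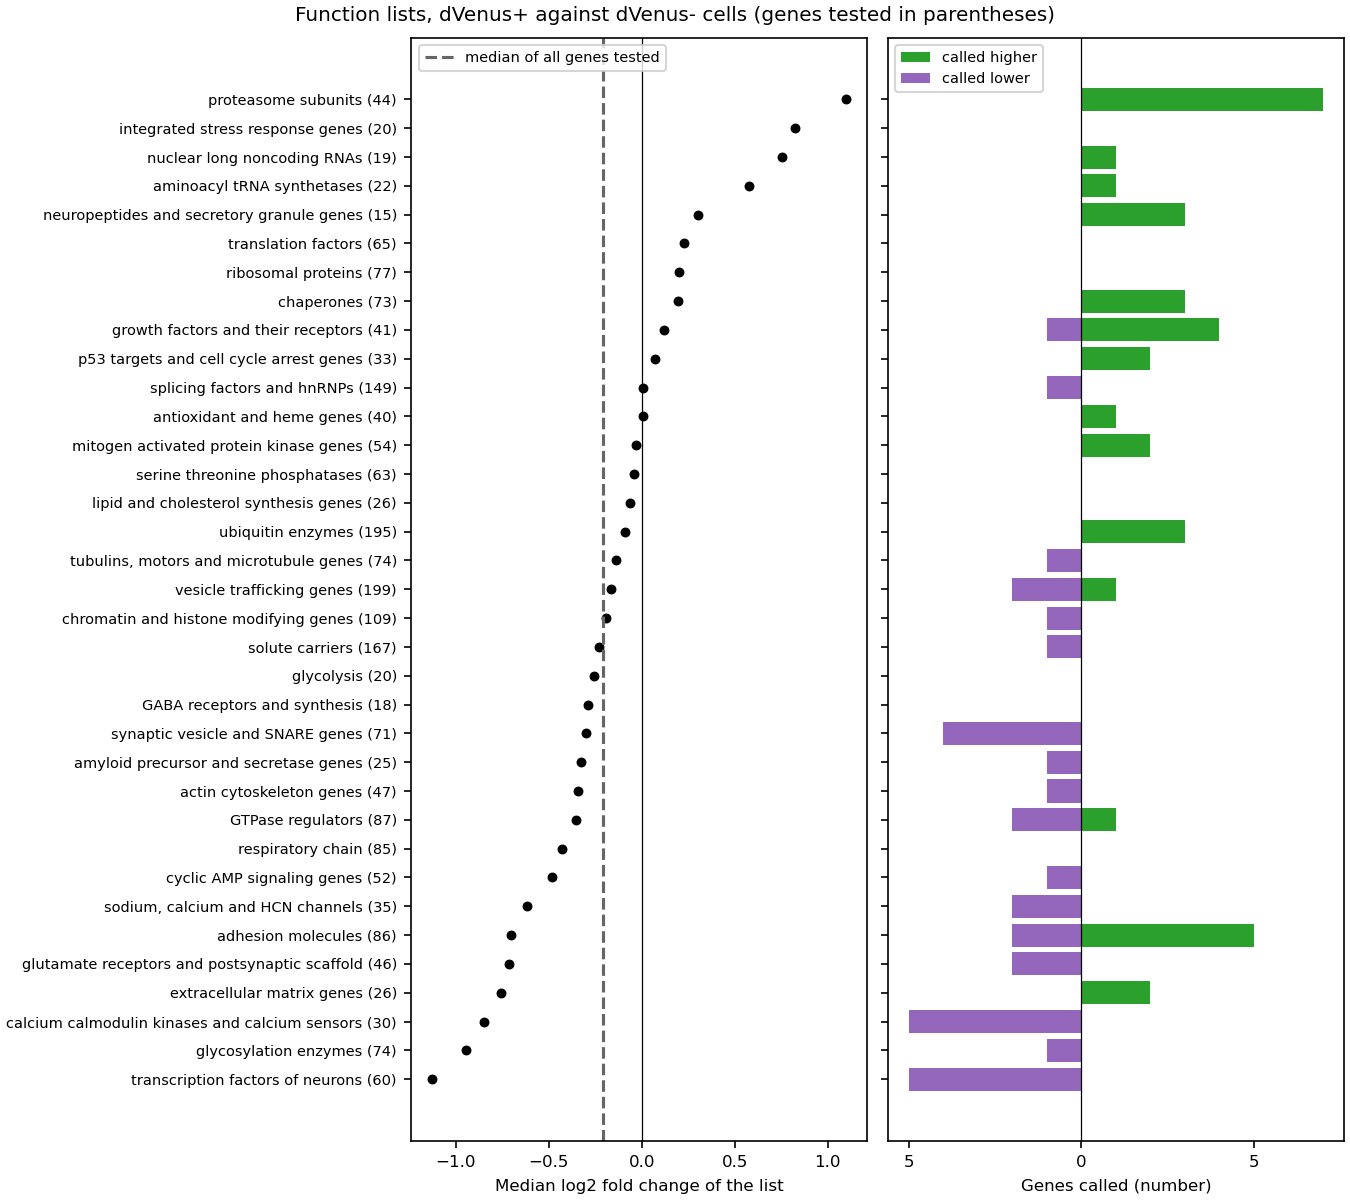
Median log2 fold change of each function list (left) and number of its genes called higher (green, to the right) or lower (purple, to the left) in dVenus+ cells (right), with the number of genes tested in parentheses. Proteasome subunits had the highest median (1.10) with 7 calls higher, and transcription factors of neurons the lowest (-1.13) with 5 calls lower, beside a median of -0.21 over all genes tested (dashed line).

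In a list of transcription factors of neurons, 5 of 60 genes were called lower and 0 higher (0.834% of all genes were called lower). Of the 60 genes 47 lay below 0, with a median of -1.13, beside 56.9% and -0.21 over all genes. *Tcf4*, a partner of proneural factors, ranged from 139 to 243 normalized CPM (median 172) in dVenus+ samples and from 253 to 1379 (median 418) in dVenus- samples without overlap (log2 fold change -1.47 ± 0.27 (SE), adjusted p = 0.00788). *Klf13* ranged from 25.5 to 237 normalized CPM (median 127) in dVenus+ samples and from 202 to 471 (median 368) in dVenus- samples (log2 fold change -1.54 ± 0.34 (SE), adjusted p = 0.028). *Bcl11b*, a factor of granule cell differentiation, was at -2.04, lower in 11 of 12 mice. *Hlf* and *Dbp*, factors of the PAR bZIP family with daily rhythms in many tissues, fell by 3.69 and 6.61 on the log2 scale in 11 of 12 mice each, and the third member *Tef* was at -1.45 (adjusted p = 0.159). *Dbp* was low in both groups, from 0 to 3.34 normalized CPM (median 0) in dVenus+ samples and from 1.72 to 24.6 (median 8.76) in dVenus- samples. The newer method also called *Neurod1*, *Neurod2*, *Bcl11a* and *Satb1* lower, at -2.80, -2.02, -3.11 and -3.98. Of 13 clock genes *Bhlhe40* was the 1 called, lower at -5.50, and *Per1*, *Per2* and *Clock* gave 0.79, 0.90 and 0.73 with adjusted p of 0.776 or more. Without mouse 1, 3 or 12, 2 genes of the list of transcription factors were called.

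Lists of nuclear genes gave single calls, beside 0.577% of all genes called higher and 0.834% called lower. *Rbfox3*, the splicing factor known as the neuronal marker NeuN, was lower in 12 of 12 mice (log2 fold change -1.96 ± 0.44 (SE), adjusted p = 0.0302) and the 1 gene called among 149 splicing genes. Among 109 chromatin genes *Brd9*, a subunit of a SWI/SNF remodelling complex, was called, at -2.33. *Malat1*, a nuclear noncoding RNA, ranged from 20059 to 91972 normalized CPM (median 35021) in dVenus+ samples and from 4195 to 44605 (median 16639) in dVenus- samples (log2 fold change 1.53 ± 0.31 (SE), adjusted p = 0.0149), and took 3.75% of the counts in dVenus+ and 1.79% in dVenus- samples, higher in 11 of 12 mice (exact permutation test, adjusted p = 0.0171). A library with a larger nuclear share and cells with more *Malat1* cannot be told apart. *Syne1*, which encodes nesprin 1 and a synaptic isoform of it, rose by 1.38 on the log2 scale, higher in 12 of 12 mice.

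Signaling genes beyond calcium gave single calls (over all genes 0.577% were called higher and 0.834% lower). *Adcy1*, the adenylyl cyclase stimulated by calmodulin, ranged from 26.1 to 273 normalized CPM (median 143) in dVenus+ samples and from 136 to 871 (median 516) in dVenus- samples and was lower in 12 of 12 mice (log2 fold change -1.66 ± 0.37 (SE), adjusted p = 0.029). It was the 1 call among 52 cyclic AMP signaling genes, and was lost without mouse 1, 3, 6, 7, 9, 12 or 13 and when scaled by total counts. *Adcy8*, the other cyclase with that property, was at 4.55 (adjusted p = 0.071), and the newer method called it higher. *Ptk2b*, a tyrosine kinase activated by calcium, fell by 1.75 on the log2 scale in 12 of 12 mice. *Mapk4*, an atypical MAP kinase, and *Rgs2*, which shortens Gq signaling, lay higher without overlap, at 5.47 and 3.96. *Spry2*, a feedback inhibitor of receptor tyrosine kinases, rose by 2.71 on the log2 scale, higher in 12 of 12 mice, a call lost when any 1 of 8 mice was left out and with total counts. Of 63 phosphatase genes 0 were called (8 at an unadjusted p under 0.05, 8 by the DESeq2 Wald test), with the calcineurin genes *Ppp3ca* and *Ppp3r1* at -0.73 and -0.41. Among all 9709 genes tested these numbers were 1238 and 1635. The neuropeptide Y receptor gene *Npy2r* ranged from 0 to 46.9 normalized CPM (median 0.239) in dVenus+ samples and from 11.2 to 176 (median 52.0) in dVenus- samples and was lower in 12 of 12 mice (log2 fold change -6.30 ± 1.26 (SE), adjusted p = 0.0149).

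Among secreted peptides and growth factors a minority of genes was called (over all genes 0.577% higher and 0.834% lower). Of 15 neuropeptide and secretory granule genes 3 were called higher, *Scg2*, *Penk* (an enkephalin precursor) and *Npy*, and 0 lower (0.577% of all genes were called higher). *Npy*, the peptide that *Npy2r* binds, ranged from 0 to 322 normalized CPM (median 48.9) in dVenus+ samples and from 0 to 330.4 (median 0.0481) in dVenus- samples (log2 fold change 7.48 ± 1.68 (SE), adjusted p = 0.0326). *Scg2*, whose promoter with a CRE is printed above, ranged from 547 to 1797 normalized CPM (median 1036) in dVenus+ samples and from 27.2 to 392 (median 152) in dVenus- samples without overlap (log2 fold change 2.92 ± 0.35 (SE), adjusted p = 0.000226). *Cck*, cholecystokinin, was at -2.91 (adjusted p = 0.077), and the list's median of 0.30 went to 0.00 when scaled by total counts. Of 41 growth factor and receptor genes, *Bdnf*, *Inhba*, *Pappa* and *Spry2* were called higher and *Igfbp5* lower, at a median of 0.12 that turned to -0.22 with total counts. *Inhba*, a subunit of activins, was at 8.84 and *Bdnf*, a neurotrophin, at 2.50. *Gadd45b* and *Plk2*, stress and activity genes, were the 2 called of 33 in the list of cell cycle arrest genes, at 6.41 and 2.54, and *Dusp1*, a phosphatase of MAP kinases, was at 7.47.

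Of 7 endocannabinoid genes tested, a group chosen after its values were seen, *Faah* and *Mgll* were called lower (0.834% of all genes were called lower). *Faah*, which hydrolyses anandamide, ranged from 0 to 96.6 normalized CPM (median 60.6) in dVenus+ samples and from 80.1 to 360.3 (median 181) in dVenus- samples and was lower in 12 of 12 mice (log2 fold change -2.81 ± 0.65 (SE), adjusted p = 0.0328). *Mgll*, the main hydrolase of arachidonoylglycerol, ranged from 0.705 to 64.2 normalized CPM (median 6.32) in dVenus+ samples and from 2.78 to 177 (median 115) in dVenus- samples, lower in 10 of 12 mice (log2 fold change -3.57 ± 0.85 (SE), adjusted p = 0.0398). Each of these calls was lost when any 1 of 9 mice was left out, and that of *Faah* also with total counts. The synthesis genes *Dagla*, *Daglb* and *Napepld* were at -1.20, 1.79 and -0.87, with adjusted p between 0.314 and 0.783.

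Cytoskeletal and trafficking genes gave small numbers of calls, beside 0.577% of all genes called higher and 0.834% called lower. Of 74 tubulin, motor and microtubule genes *Kif26b*, a kinesin-like protein, was called lower at -6.30, of 47 actin genes *Wasf1*, a driver of branched actin, at -1.64, and of 87 GTPase regulators *Tiam2* and *Sipa1l2* lower (-7.23 and -3.99) and *Rgs2* higher. The calls of *Kif26b* and *Wasf1* were each lost when any 1 of 9 mice was left out and that of *Sipa1l2* when any 1 of 8 was, and *Wasf1* and *Sipa1l2* were not called with total counts. *Inf2*, a formin that acts on actin and mitochondria, was lower in 12 of 12 mice at -5.18. *Nefm*, a neurofilament, was higher in 11 of 12 mice (log2 fold change 1.78), while *Nefl* was at -0.43 (adjusted p = 0.732). *Rtn1*, a reticulon of the endoplasmic reticulum in neurons, ranged from 17.7 to 808 normalized CPM (median 253) in dVenus+ samples and from 813 to 2084 (median 1261) in dVenus- samples without overlap (log2 fold change -2.28 ± 0.39 (SE), adjusted p = 0.00476). *Itm2c*, a binding partner of the amyloid precursor protein, was lower in 12 of 12 mice (log2 fold change -2.66 ± 0.43 (SE), adjusted p = 0.00354), and *Rab26*, a GTPase of vesicles and autophagy, was at -5.64. *Jph4*, a junctophilin that ties the endoplasmic reticulum to the plasma membrane, fell by 2.66 and *Ywhah*, a 14-3-3 adaptor, by 1.14 on the log2 scale, while the other 5 14-3-3 genes had adjusted p between 0.616 and 0.847.

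Many of the genes with the largest decreases were near 0 in dVenus+ samples. *Sidt1*, a transmembrane protein linked to RNA transport, ranged from 0 to 35.1 normalized CPM (median 0.886) in dVenus+ samples and from 3.08 to 176 (median 79.0) in dVenus- samples (log2 fold change -5.97 ± 1.04 (SE), adjusted p = 0.00572). *Faim2*, an inhibitor of Fas-induced cell death in neurons, ranged from 0.887 to 365 normalized CPM (median 17.1) in dVenus+ samples and from 179.7 to 809 (median 293) in dVenus- samples (log2 fold change -4.03 ± 0.80 (SE), adjusted p = 0.014). *Mycl1*, *Gm13889*, *Appl2*, *Elfn2* and *Rhbdl1* were lower in 12 of 12 mice at -7.07, -6.22, -5.63, -5.53 and -4.97, with medians of at most 0.377 normalized CPM in dVenus+ samples. *Appl2* is an adaptor of early endosomes, *Elfn2* a postsynaptic organizer and *Rhbdl1* a rhomboid-like protein. The glycosyltransferase *B3galt5* and the monoamine transporter *Slc29a4* were called lower as the 1 gene each of 74 glycosylation and 167 solute carrier genes, at -7.21 and -6.05. Over all genes 0.834% were called lower.

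**Figure D5:**
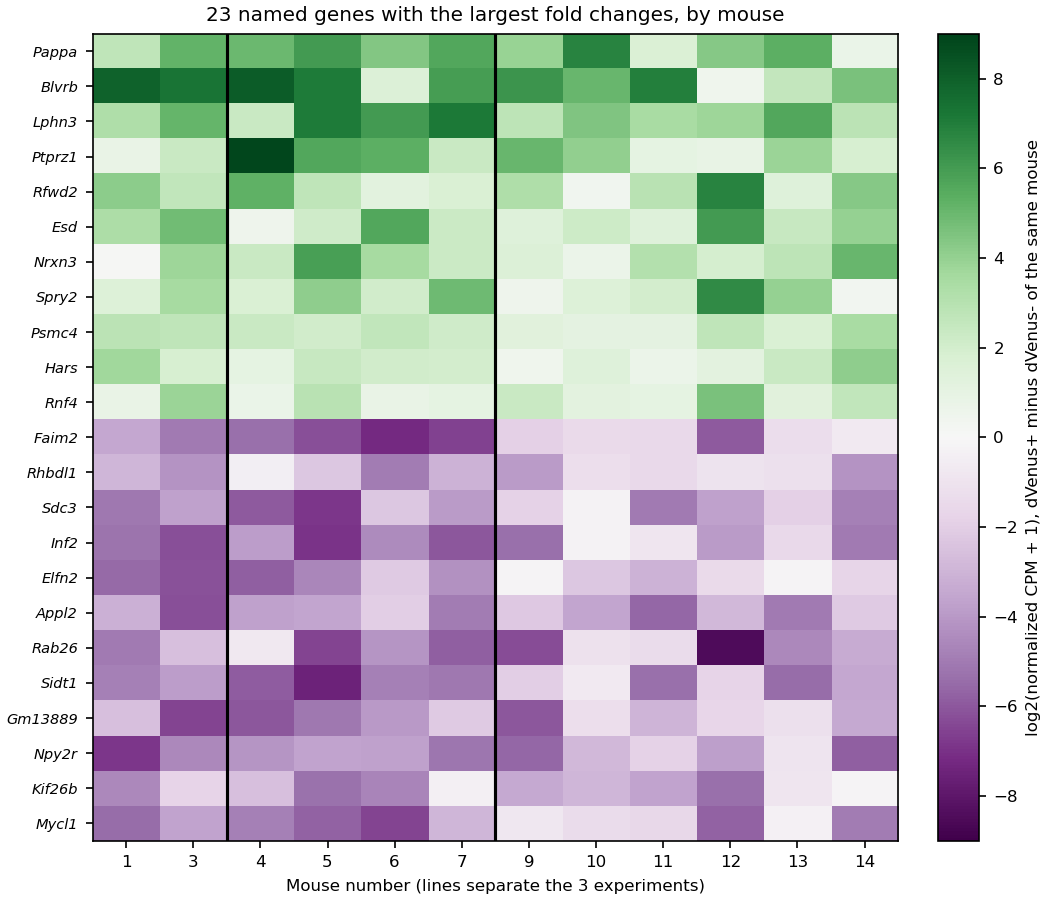
Difference of log2(normalized CPM + 1) between the dVenus+ and the dVenus- sample of each FC mouse (columns, with lines between the 3 experiments) for 23 named genes among those with the largest fold changes (rows). By the rule that chose them, the upper 11 genes were higher (green) and the lower 12 genes lower (purple) in every one of the 12 mice, and the size of the difference varied from mouse to mouse.

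Genes detected in 1 cell type only were counted without a test. With at least 10 counts in 9 or more of the 12 samples of one cell type and in 3 or fewer of the other, 27 genes were detected in dVenus+ and 113 in dVenus- samples. The total counts were lower in dVenus+ samples in 9 of 12 mice, and with a limit of 1 CPM in place of 10 counts, an alternative added after seeing the data, the numbers were 34 and 87. *Fkbp1b*, a regulator of ryanodine receptors, and *Glt8d2* had at least 10 counts in 9 dVenus- and 0 dVenus+ samples. *Bag3*, a partner of HSP70 that is induced by heat shock, had at least 10 counts in 9 dVenus+ samples and was at 7.08 with an adjusted p of 0.0946. *Atf3*, a stress and activity factor, had at least 10 counts in 10 dVenus+ and 1 dVenus- sample, too few libraries for the test as set here.

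Whether the difference between dVenus+ and dVenus- cells depends on the training was asked with interaction terms, in a model over all 38 libraries (edgeR). At an adjusted p under 0.05, 0 of 14075 genes passed for FC against NS (0.0%) and 0 for FC against HC (0.0%), with 763 and 892 genes at an unadjusted p under 0.05 where 704 would be the share of 5%. With 4 NS and 3 HC mice this does not show that the differences were alike. The NS and HC mice also came from an experiment without FC mice. Training and experiment therefore cannot be told apart when FC is set against NS or HC. For *Psmc4* the log2 fold change in the joint fit was 1.55 in NS and -2.28 in HC mice (interaction adjusted p = 0.471 for HC). *Blvrb* had 7.55 in NS and -3.89 in HC mice, *Lphn3* 5.86 and 7.70, *Camkv* -2.76 and -1.50, and *Ncald* -2.58 and -2.32, all with interaction adjusted p of 0.752 or more. In this joint fit, with the spread estimated over all 38 libraries, none of the named genes passed the threshold in NS or HC mice alone. The study fitted each group on its own with DESeq2. It reported *Arc* as higher in dVenus+ cells in NS and HC mice too, and *Inhba* as regulated in NS mice.

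The promoters of the called genes were compared with those of all genes tested, as a description. A RefSeq promoter was at hand for 43 higher and 60 lower genes and 7795 genes tested. A TATA box was found on either strand in 20.9% of the higher, 8.33% of the lower and 8.44% of all genes, and in 14.0%, 8.33% and 6.56% when only the first window of each gene was read. The higher genes had 1.65 windows each on average, against 1.30 for all. A CRE was found in 6.98%, 3.33% and 3.77%, and the shorter site TGACG, which every CRE holds, in 41.9%, 28.3% and 37.5%. The AP-1 site (TGACTCA or TGAGTCA) was in 4.65%, 0% and 4.05% of them, the E-box (CACGTG) in 6.98%, 13.3% and 12.3%, and the GC box (GGGCGG) in 65.1%, 73.3% and 70.0%. With only the first window read, TGACG was in 32.6%, 26.7% and 33.9% and the AP-1 site in 2.33%, 0% and 2.98%, so that the higher genes lay below all genes for both. The E-box was then in 6.98%, 10.0% and 10.7%, with the lower genes below all genes too. For the proteasome, the core of the antioxidant response element (TGACNNNGC), a motif added after seeing the data, was in 16.2% of 37 promoters, against 17.2% of all. The median genomic span was 18.3 kb for higher and 33.8 kb for lower genes, against 25.9 kb for all.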

How the data were processed

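The authors deposited 1 table of counts per library. Per the labels and the methods of the study, SmartSeq2 cDNA from 10 pooled cells was sequenced, reads were aligned to mm10 with TopHat2 2.0.13 and counted on genes with HTSeq 0.6.0, without normalization. The kit does not mark strand, so overlapping antisense genes cannot be separated. Each table holds 23420 genes and 5 entries that name no gene, which were left out. The entry for reads that hit no gene held 19.1% to 59.7% of uniquely aligned reads per FC library. A combined table of all libraries was not used here.

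Counts were analysed with edgeR 4.0.16 (R 4.3.3): a minimum of 10 counts in 12 or more of the 24 libraries, TMM, estimateDisp, glmQLFit and glmQLFTest at defaults, the mouse as block, two-sided, Benjamini-Hochberg adjustment. The interactions used genes with at least 10 counts in 3 libraries. The SE beside a fold change is the absolute log2 fold change divided by the square root of the test's F statistic. It was derived from the test and not estimated apart from it, so it is approximate, above all for genes near 0. Per-library values are CPM with TMM factors, and measures per library were compared by exact sign-flip permutation. The scripts were tested on simulated data. The dVenus+ and dVenus- samples of 1 mouse are a pair because they share the animal. Their deviations from the group means had a median correlation of 0.0484 (range -0.0365 to 0.253, 2 of 12 pairs over 0.1), and those of different mice -0.00658.

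Named genes were the 12 largest and 12 smallest log2 fold changes among called genes that moved the same way in 12 of 12 mice and lie outside the lists of the study, up to 4 called genes per function list (else the 2 most abundant), *Arc*, *Atf3* and the cell type markers. A few genes are not reported here, and counts include them. Other genes were named after their values were seen. The members, lists and tests were chosen with earlier results of these data known. Function lists are hand-made symbol lists and were described, not tested. Alternatives were DESeq2 1.42.0 (its size factors and its Wald test), limma-voom (limma 3.58.1), total counts, other count minimums, no block, single mice, experiments or groups of mice left out, and the newer quasi-likelihood method, which was added after seeing the data. The promoter windows are RefSeq, GRCm38.p6, the same build as mm10.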

Additional observations from a re-analysis of the deposited data

How the results depend on the processing

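The 137 calls (56 higher, 81 lower) became 151 (63, 88) with DESeq2 size factors, 81 (20, 61) with total counts, 134 (60, 74) and 126 (44, 82) with a minimum of 10 counts in 4 or 20 libraries, and 133 (56, 77) without a count minimum. Without the replicate block, 126 genes were called (66, 60), 90 of them among the 137. The DESeq2 Wald test called 1635 (554, 1081), limma-voom 307 (122, 185) and the newer quasi-likelihood method 422 (146, 276). Leaving out 1 mouse gave between 56 and 118 calls (28 to 54 higher, 28 to 67 lower), lowest without mouse 3. Without mice 3 and 5 there were 49 calls (24, 25) and without mice 6, 7 and 14 there were 45 (24, 21). In the experiment of 6 mice alone edgeR called 0 genes higher and 0 lower, with 718 at an unadjusted p under 0.05, and in that of 4 mice 3 (*Malat1*, *Snhg11* and *Sorcs3*, all higher, 0 lower). Fewer mice entered these fits. Every one of the 137 genes that could be tested kept its sign under each of these settings. The interactions gave 0 genes under each alternative tried.

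Genes detected in 1 cell type numbered 30 to 49 (dVenus+) and 141 to 240 (dVenus-) when 1 mouse was left out, by construction, since the limit then was 8 of 11 samples. The dVenus+ to dVenus- difference in the *Malat1* share was 1.95 percentage points, 1.62 to 2.30 with 1 mouse left out and 1.92 without mice 3 and 5 (adjusted p = 0.0684), that in total counts -3096810 to -2214360 (adjusted p = 0.0244 without mouse 12 and 0.0439 without mouse 13), that in the share of the 100 most abundant genes 9.30 to 15.1 points, and without mouse 12 the last of these had an adjusted p of 0.0407. Without mice 6, 7 and 14 the CRE was in 20.0% of promoters of higher genes (3 of 15, beside 3 of 43 with all mice). It was in 0% of lower genes (0 of 13, beside 2 of 60), and the E-box was too (0 of 13, beside 8 of 60). The number of higher genes with a CRE was thus the same in a smaller set, and no cause was tested. Among called or named genes and function lists under all alternatives, 5632 values kept their side of the threshold or, for lists, stayed within the spread between mice. Of the others, 1219 no longer passed, 102 newly passed and 26 moved. A change of sign was counted as reversed only for a gene called under the main or the alternative setting, which gave 0. Genes called under neither, and lists, could not count as reversed. With total counts some list medians did change sign, as for chaperones (0.20 to -0.22). The biological coefficient of variation over genes was 1.20.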

Other observations

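Some called genes belonged to none of the function lists and were picked after their values were seen. *Glcci1*, a gene first known as induced by glucocorticoids, was higher in 11 of 12 mice (log2 fold change 1.84), and *Ptprn*, a protein of dense-core vesicles, in 11 of 12 (1.56). *R3hdm1*, a gene with an RNA-binding domain, was higher in 12 of 12 mice at 1.73. The host transcript of a microRNA, *Mir22hg*, was at 3.63, higher in 11 of 12. *Svil*, an actin-binding protein, ranged from 0 to 157 normalized CPM (median 46.1) in dVenus+ samples and from 0 to 8.36 (median 0) in dVenus- samples.

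Lower genes outside the function lists included several of axons and signaling. *Olfm1*, a secreted protein of neurons, ranged from 345 to 1005 normalized CPM (median 543) in dVenus+ samples and from 648 to 2775 (median 1345) in dVenus- samples (log2 fold change -1.37 ± 0.27 (SE), adjusted p = 0.0125), and *Cpne6*, a calcium sensor of spines, ranged from 63.5 to 999 normalized CPM (median 354) in dVenus+ samples and from 559 to 2459 (median 821) in dVenus- samples (log2 fold change -1.62 ± 0.34 (SE), adjusted p = 0.0209). *Chn1*, a Rac regulator, and *Ncdn*, neurochondrin, were lower in 12 of 12 mice at -1.64 and -1.33. *Cygb*, cytoglobin, was lower in 12 of 12 at -3.53. *Frzb*, a secreted inhibitor of Wnt signals, and *Lpin1*, a phosphatase of lipid synthesis, had values of -6.53 and -6.74, and *Tnik*, a kinase of Wnt and synaptic signaling, -2.21. *Tppp*, which promotes tubulin polymerization, and *Tub*, tubby, had values of -2.33 and -2.35.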
